A study of Homo sapiens with 6 samples.

Results

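A set of 41 genes was present at low levels in control LP-1 myeloma cells and close to 0 after depletion of RNF5. They were chosen from the 1877 genes of the deposited table by their values. These were only genes that the authors listed as changed at least 2-fold, 953 lower and 924 higher. Shares over listed genes below are therefore shares over changed genes. A gene not listed has no value here and may still be expressed. The highest of the 3 knockdown values had to be under 0.5 and the mean of the 3 control values at least 1, on the authors' normalized scale. These thresholds were met by 63 genes, of which 22 were left out by name. The names left out were 12 loci without a gene name, 3 hyphenated names (an antisense RNA and read-through transcripts), 2 numbered pseudogenes, 1 ZNF gene, 1 SLC gene, and SPARC, IFIT2 and BLNK. Since the measured difference chose the genes, all values below that set knockdown against control describe the selection and carry no test.

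LP-1 is an established human multiple myeloma cell line, grown here in RPMI-1640 medium with 15% fetal bovine serum. Cells depleted of RNF5, a ubiquitin ligase anchored in the endoplasmic reticulum membrane, by short-hairpin RNA (3 libraries) were compared with cells carrying a non-target control (3 libraries). How many hairpins were used, when cells were harvested and whether replicate libraries came from different cultures was not stated, so the spread between libraries may be technical. RNF5 itself was listed at 1595, 1649 and 1248 in the control, in the order of libraries 1, 2 and 3 as in all such values below, and at 95.4, 81.4 and 88.4 after knockdown. The plasma cell antigen SDC1 was present in every library, at 9.20 to 14.5 in the control and 34.1 to 36.2 in the knockdown.

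The 41 genes do not belong to one pathway. As background, several are known from tissues other than plasma cells. These include piRNA proteins of germ cells, uroplakin of the bladder lining and the digestive enzyme of the intestinal brush border. Others are a neuropeptide precursor of the hypothalamus and a transcription factor of the placenta. Transcripts of such tissue-restricted genes can occur at trace levels in cell lines, where a single cell may carry few copies or none. In bulk RNA, fewer cells with a transcript and less transcript per cell cannot be told apart.

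RefSeq sequences of the bases before the transcription start, on build GRCh38.p14, were at hand for 23 of the 41 genes. The stretches of 5 genes are shown, with a short motif in capitals, to put the motif counts given next beside real sequence. Their share of G and C ran from 39.2% (RBMS2) to 62.4% (PLEKHA6), within 26.8% to 71.2% over the 23 genes. PLEKHA6 (chr1:204359930-204360179, minus strand) and THBS4 (chr5:79991266-79991331, plus strand) carried the E-box CACGTG, beginning at positions -53 and -39 from the start. IGFBP2 (chr2:216632578-216632827, plus strand) carried the GC box GGGCGG at -86. GCM1 (chr6:53148842-53149091, minus strand) carried the CCAAT box, read on the other strand, at -67. RBMS2 (chr12:56521570-56521819, plus strand) carried TATAAA, also on the other strand, at -200. Each stretch is printed 5′ to 3′ along its gene and ends at the base before the start. THBS4 is cut to the 66 bases that lie outside annotated untranslated sequence.
PLEKHA6: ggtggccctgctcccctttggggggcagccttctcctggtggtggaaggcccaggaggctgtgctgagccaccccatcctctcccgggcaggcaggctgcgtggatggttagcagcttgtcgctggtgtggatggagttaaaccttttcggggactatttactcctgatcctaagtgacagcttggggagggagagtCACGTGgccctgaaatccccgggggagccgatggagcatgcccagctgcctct
THBS4: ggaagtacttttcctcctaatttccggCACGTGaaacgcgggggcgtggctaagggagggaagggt
IGFBP2: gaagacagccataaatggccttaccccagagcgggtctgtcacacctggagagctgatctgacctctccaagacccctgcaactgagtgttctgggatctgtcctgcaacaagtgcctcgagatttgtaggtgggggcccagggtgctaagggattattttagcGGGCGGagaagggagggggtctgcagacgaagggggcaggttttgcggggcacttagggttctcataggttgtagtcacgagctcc
GCM1: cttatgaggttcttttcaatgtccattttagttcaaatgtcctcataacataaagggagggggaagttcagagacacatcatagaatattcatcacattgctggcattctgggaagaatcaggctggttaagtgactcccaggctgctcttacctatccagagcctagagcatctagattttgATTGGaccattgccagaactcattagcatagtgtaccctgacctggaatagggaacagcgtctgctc
RBMS2: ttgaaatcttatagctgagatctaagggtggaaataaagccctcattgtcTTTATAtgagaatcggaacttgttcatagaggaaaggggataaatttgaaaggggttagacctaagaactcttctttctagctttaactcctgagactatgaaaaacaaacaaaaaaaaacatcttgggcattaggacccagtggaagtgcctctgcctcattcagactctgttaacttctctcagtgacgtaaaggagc

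The E-box was found, within 250 bases before the start, in 3 of the 23 genes (PLEKHA6, THBS4 and TCP11, 13.0%). It was in 6.49% of all 27305 RefSeq promoters and in 8.91% of the 505 other genes listed as lower that had a sequence. TATAAA was found in 5 (DUOX2, LRRC39, MYRFL, PLAC8L1 and RBMS2, 21.7%), against 11.1% of all promoters and 12.7% of the other lower genes. GGGCGG was in 9 of 23 (39.1%), against 42.3% of all and 61.4% of the other lower genes. CCAAT was in 6 (26.1%), against 33.0% and 35.6%. The median share of G and C was 56.4% in the 23 genes, 58.0% in all promoters and 62.0% in the other lower genes. So few promoters make these shares descriptions only.

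Motifs of stress and interferon responses were each in 0 or 1 of the 23 promoters, and nothing is read from such small counts. The heat shock element (GAA, any 2 bases, TTC, any 2 bases, GAA) was in 0 of 23 (0.439% of all promoters and 0.990% of the other lower genes). The cyclic AMP response element TGACGTCA (1.77% and 2.38%) and the AP-1 site TGANTCA (6.60% and 5.35%) were also in 0 of 23. With the 50 bases after the start included, TGACGTCA was in TMEM59L, 1 of 23 (4.35%, against 1.98% of all promoters). The core of the antioxidant response element, TGACNNNGC, was in TAC3 alone (4.35%, against 11.03% and 12.5%), and the interferon-stimulated response element (GAAA, any 2 bases, GAAA) in PLAC8L1 alone (4.35%, against 3.07% and 4.75%). All motifs were searched on both strands as exact letters, with N for any base, and each was counted on its own, whether or not it overlapped another. A match marks letters, not a bound site, and no match says only that these letters are not in this window.

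Across the 41 genes the control means ran from 1.01 (GCM1) to 5.98 (APOE), with a median of 1.24, and 31 lay below 2. The knockdown means ran from 0 to 0.447 (RBMS2), with a median of 0.213. Of the 123 knockdown values, 15 were 0, spread over 8 genes, and none of the control values was 0. The knockdown level was a median of 12.4% of the control level. The label of near silence holds for the level rather than the fold: EFCAB8 kept 35.5% of its control mean and OTOAP1 31.5%, while TMEM59L kept 1.63%. Summed over the 41 genes, the values were 80.1, 66.3 and 60.9 in the control and 8.36, 7.42 and 8.53 in the knockdown. In every one of the 41 genes all 3 control values lay above all 3 knockdown values, where 89.6% of the 953 genes listed as lower, and 45.5% of all listed genes, did so. The thresholds come close to forcing this, and nothing is read from it.

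**Figure D1:**
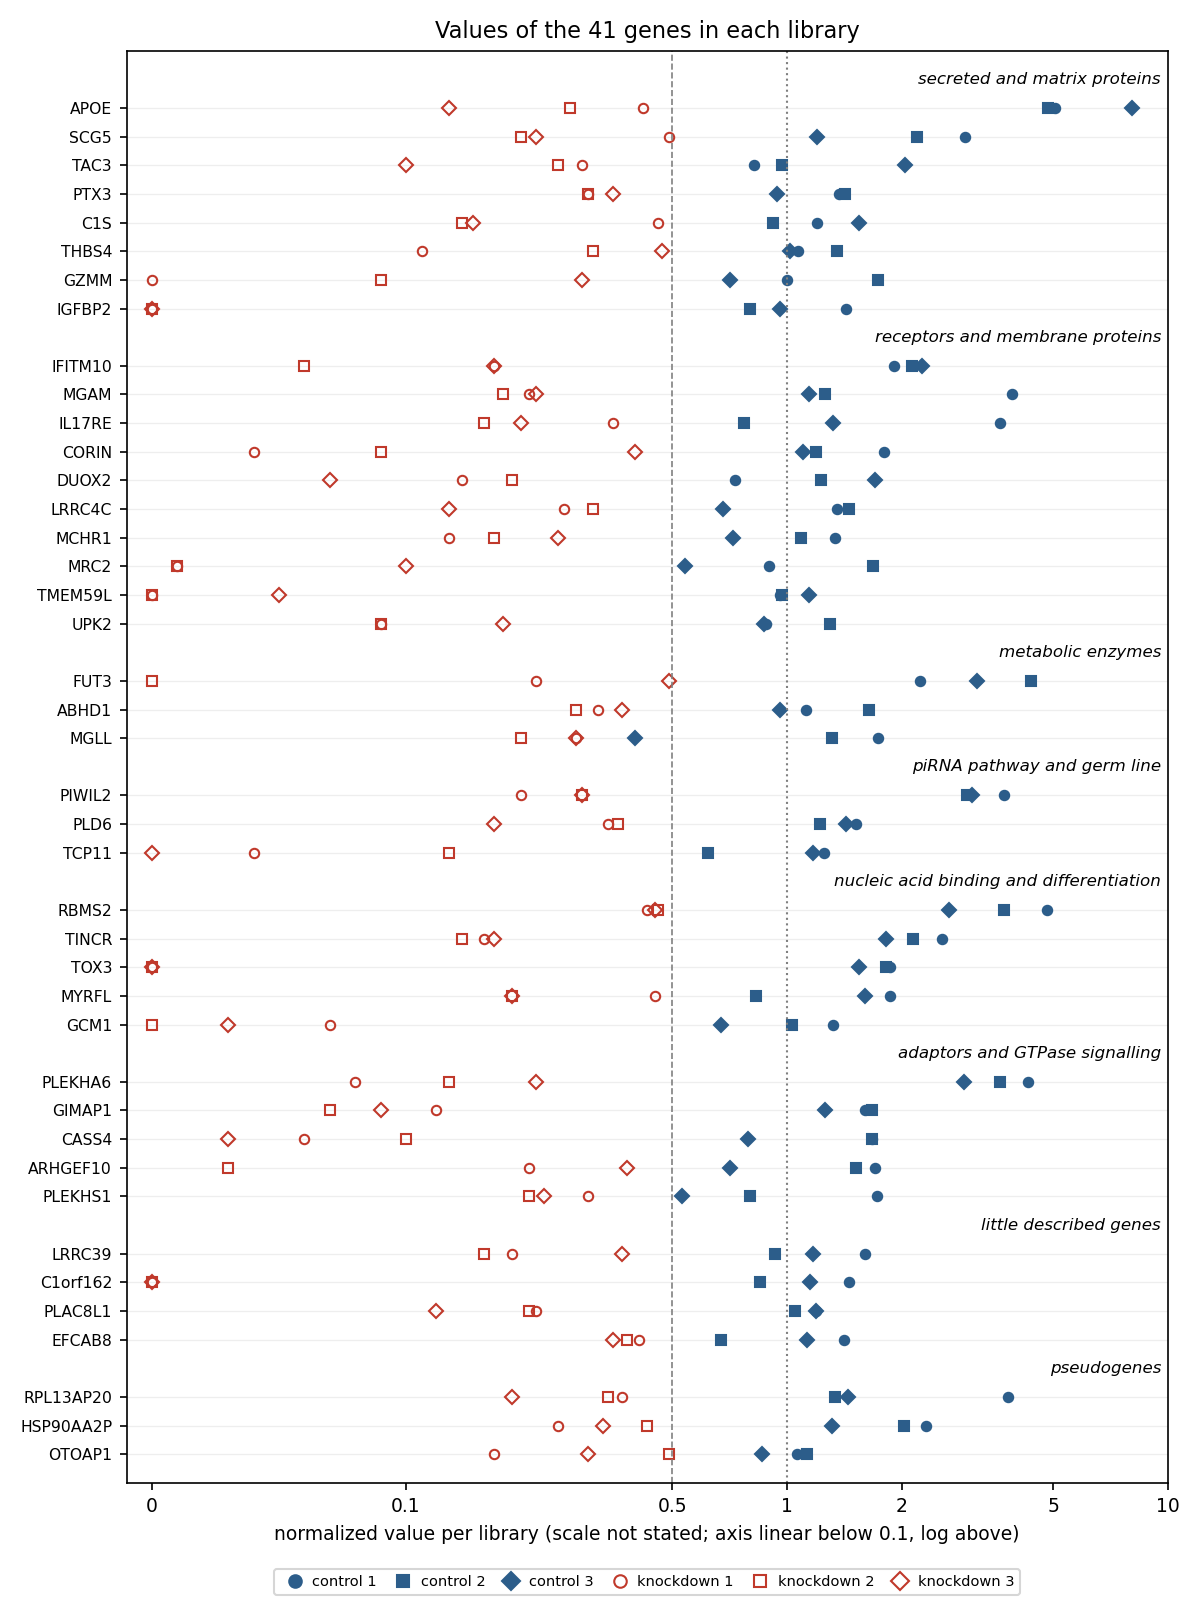
Normalized value of each of the 41 genes in each library (horizontal axis, linear below 0.1 and logarithmic above), grouped by role; filled blue symbols are control libraries 1 to 3, open red symbols knockdown libraries 1 to 3, and the dashed and dotted lines mark 0.5 and 1. The 2 groups are apart in every gene, most narrowly in MGLL, where control library 3 (0.40) lies next to the knockdown values of up to 0.28.

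Each gene was assigned to 1 role group by judgement, so the sizes of the groups depend on that sorting. Secreted and matrix proteins made up 8 of the genes. APOE, which carries lipids between cells, had the largest control mean of the set. It was at 5.05, 4.85 and 8.04 in the control and 0.42, 0.27 and 0.13 in the knockdown. The means were 5.98 ± 1.79 and 0.273 ± 0.145 (SD, n = 3 each), a ratio of 21.9. It was highest in control library 3, the library in which most of the other genes were lowest. SCG5, a neuroendocrine chaperone of a prohormone convertase, was at 2.94, 2.19 and 1.20 in the control and 0.49, 0.20 and 0.22 in the knockdown. Its control library 3 was well below the other controls and still 2.45 times the highest knockdown value. TAC3, the precursor of the neuropeptide neurokinin B, was at 0.82, 0.97 and 2.04 in the control and 0.29, 0.25 and 0.10 in the knockdown, so control library 3 alone brought its mean above 1.

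PTX3 and C1S belong to innate immunity. PTX3, a soluble pattern recognition protein, was at 1.37, 1.42 and 0.94 in the control and 0.30, 0.30 and 0.35 in the knockdown. C1S, a protease of the classical complement pathway, was at 1.20, 0.92 and 1.55 in the control and 0.46, 0.14 and 0.15 in the knockdown. The knockdown mean was 25.5% of the control mean for PTX3 and 20.4% for C1S. GZMM, a granule protease of cytotoxic lymphocytes, was at 1, 1.73 and 0.71 in the control and 0, 0.09 and 0.29 in the knockdown.

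THBS4, a thrombospondin of the extracellular matrix, was at 1.07, 1.35 and 1.02 in the control and 0.11, 0.31 and 0.47 in the knockdown. Its lowest control value was 2.17 times its highest knockdown value. IGFBP2, which binds insulin-like growth factors, was at 1.43, 0.80 and 0.96 in the control and listed at 0 in all 3 knockdown libraries. It is on the list of growth factors, hormones and their receptors, and was the one member of the 41 on any of the 14 gene lists used here. That count is partly set by the name rule, since SPARC, IFIT2 and BLNK, each on at least 1 of these lists, met the thresholds and were left out. The lists are not complete either, since THBS4 and the receptors IL17RE and MCHR1 are on none of them. Of that list's 83 genes, 13 were in the table, 5 listed as lower and 8 as higher.

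Receptors and other membrane proteins, membrane-bound enzymes included, were the largest group as sorted here, with 10 genes. MGAM, the maltase-glucoamylase of starch digestion, was at 3.90, 1.26 and 1.14 in the control and 0.21, 0.18 and 0.22 in the knockdown. IL17RE, a receptor chain for a cytokine of epithelial defence, was at 3.62, 0.77 and 1.32 in the control and 0.35, 0.16 and 0.20 in the knockdown. In both genes control library 1 was far above the other controls, by 3.10 and 2.74 times the next value. IFITM10, named by sequence likeness to the interferon-induced transmembrane proteins, was even across the controls at 1.91, 2.13 and 2.26 and was at 0.17, 0.06 and 0.17 in the knockdown. Of the 51 interferon-induced genes on the list used here, 13 were in the table, 10 listed as lower and 3 as higher. IFIT2, which is on that list, met both thresholds and was left out by name (3.02, 2.60 and 1.90 in the control, 0.03, 0.11 and 0.16 in the knockdown), so the absence of the list from the 41 is set by the rule.

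CORIN, the membrane protease that activates atrial natriuretic peptide, was at 1.80, 1.19 and 1.10 in the control and 0.04, 0.09 and 0.40 in the knockdown. DUOX2, which makes hydrogen peroxide in the thyroid and at mucosal surfaces, was at 0.73, 1.23 and 1.70 in the control and 0.14, 0.19 and 0.07 in the knockdown. Its control values ran opposite to most of the set, with library 1 lowest and library 3 highest. LRRC4C, a ligand of netrin-G at synapses, was at 1.35, 1.46 and 0.68 in the control and 0.26, 0.31 and 0.13 in the knockdown. MCHR1, the receptor of melanin-concentrating hormone, was at 1.34, 1.09 and 0.72 in the control and 0.13, 0.17 and 0.25 in the knockdown.

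The smallest remaining levels among membrane proteins were those of MRC2 and TMEM59L. MRC2, an endocytic receptor for collagen, was at 0.90, 1.68 and 0.54 in the control and 0.01, 0.01 and 0.10 in the knockdown, where 0.01 is the smallest value the table can show. TMEM59L was at 0.96, 0.97 and 1.14 in the control and 0, 0 and 0.05 in the knockdown. Its lowest control value was 19.2 times its highest knockdown value, the widest gap among the 38 genes for which that quotient exists. UPK2, a uroplakin of the bladder epithelium, was at 0.88, 1.30 and 0.87 in the control and 0.09, 0.09 and 0.18 in the knockdown.

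Metabolic enzymes numbered 3, with the enzymes MGAM and DUOX2 counted among the membrane proteins above. FUT3, the fucosyltransferase that makes Lewis blood group antigens, was at 2.23, 4.37 and 3.15 in the control and 0.22, 0 and 0.49 in the knockdown. The knockdown libraries of FUT3 spanned the whole range that the ceiling allowed. MGLL, which hydrolyses monoglycerides including an endocannabinoid, was at 1.74, 1.31 and 0.40 in the control and 0.28, 0.20 and 0.28 in the knockdown. Control library 3 of MGLL was 1.43 times its highest knockdown value, the narrowest gap of the 41. ABHD1, a hydrolase-fold protein, was at 1.12, 1.64 and 0.96 in the control and 0.32, 0.28 and 0.37 in the knockdown.

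A germ-line group held PIWIL2 and PLD6, which both act in the piRNA pathway that silences transposons in germ cells, and TCP11, a testis gene. PIWIL2, a PIWI protein, was at 3.72, 2.97 and 3.06 in the control and 0.20, 0.29 and 0.29 in the knockdown, with means of 3.25 ± 0.410 and 0.26 ± 0.0520 (SD, n = 3 each), 12.5-fold apart. PLD6, a mitochondrial outer membrane nuclease of the same pathway, was at 1.52, 1.22 and 1.43 in the control and 0.34, 0.36 and 0.17 in the knockdown. Both were among the more even genes across the control libraries, whose highest and lowest values differed 1.25-fold in each. TCP11 was at 1.25, 0.62 and 1.17 in the control and 0.04, 0.13 and 0 in the knockdown. The related PIWIL4, outside the set and looked up after these values were seen, was at 1.89, 2.65 and 2.39 in the control and 0.65, 0.87 and 0.66 in the knockdown. PIWIL1 and PIWIL3 were not among the listed genes. Of the cancer-testis family, taken by symbol pattern, 3 genes were in the table, 0 listed as lower and 3 as higher.

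Genes of nucleic acid binding and differentiation included TOX3, an HMG-box transcriptional regulator, with the most negative deposited change of the 41. It was at 1.87, 1.82 and 1.55 in the control and listed at 0 in all 3 knockdown libraries. The lower genes that met the same name rule were the 41 and 674 others. Of their 20 most negative log2 fold changes in the authors' deposited table, 4 were in the set (TOX3, C1orf162, TMEM59L and IGFBP2). The rest of these 20 lay below the control floor, except HSPA6, which lay above the knockdown ceiling. The rule used this same contrast, so nothing is read from the count. GCM1, the transcription factor of placental trophoblast, was at 1.32, 1.03 and 0.67 in the control and 0.07, 0 and 0.03 in the knockdown. RBMS2, an RNA-binding protein, was at 4.82, 3.71 and 2.66 in the control and at an even 0.43, 0.46 and 0.45 in the knockdown. RBMS2 thus had the highest knockdown mean of the 41 while having the second highest control mean.

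TINCR, known from epidermal differentiation and annotated as protein-coding, was at 2.56, 2.15 and 1.82 in the control and 0.16, 0.14 and 0.17 in the knockdown. MYRFL, a relative of the myelin regulatory factor, was at 1.86, 0.83 and 1.60 in the control and 0.45, 0.19 and 0.19 in the knockdown. Library 1 was the highest in both groups of MYRFL, and the lowest control value was 1.84 times the highest knockdown value.

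Adaptors and GTPase signalling genes numbered 5. PLEKHA6, a protein with a pleckstrin homology domain that acts at cell junctions, was at 4.29, 3.63 and 2.91 in the control and 0.08, 0.13 and 0.22 in the knockdown, 25.2-fold lower by the ratio of means. PLEKHS1 shares that domain and was at 1.72, 0.80 and 0.53 in the control and 0.30, 0.21 and 0.23 in the knockdown. The pair differed in evenness: in PLEKHS1 the control libraries spanned 3.25-fold, and in PLEKHA6 1.47-fold. CASS4, a scaffold of the Cas adhesion family, was at 1.67, 1.67 and 0.79 in the control and 0.06, 0.10 and 0.03 in the knockdown. ARHGEF10, a guanine nucleotide exchange factor, was at 1.70, 1.52 and 0.71 in the control and 0.21, 0.03 and 0.38 in the knockdown. GIMAP1, a GTPase of lymphocyte survival, was at 1.60, 1.67 and 1.26 in the control and 0.12, 0.07 and 0.09 in the knockdown. Control library 3 was the lowest control in all 5 of these genes.

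Of the 4 little described genes, C1orf162 was at 1.46, 0.85 and 1.15 in the control and listed at 0 in all 3 knockdown libraries. LRRC39, known from the contractile apparatus of striated muscle, was at 1.60, 0.93 and 1.17 in the control and 0.19, 0.16 and 0.37 in the knockdown. PLAC8L1 was the most even across the controls (1.19, 1.05 and 1.19) and was at 0.22, 0.21 and 0.12 in the knockdown. EFCAB8, named for an EF-hand calcium-binding domain, was at 1.41, 0.67 and 1.13 in the control and 0.41, 0.38 and 0.35 in the knockdown. EFCAB8 had the smallest ratio of means of the set, 2.82-fold.

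The other 3 members were pseudogenes, whose reads can come from a near-identical parent, so their levels are uncertain. HSP90AA2P was at 2.32, 2.03 and 1.31 in the control and 0.25, 0.43 and 0.33 in the knockdown. Its parent, the inducible chaperone gene HSP90AA1, was at 1545, 1241 and 991 in the control and 232, 268 and 253 in the knockdown. HSP90AA2P stood at 0.132% to 0.164% of HSP90AA1 in the control libraries and at 0.108% to 0.160% in the knockdown libraries, and the ratios of means were 5.60-fold for the pseudogene and 5.01-fold for the parent. The ranges of this proportion overlapped between the groups. RPL13AP20 was at 3.80, 1.34 and 1.45 in the control and 0.37, 0.34 and 0.19 in the knockdown. Its parent RPL13A was not among the listed genes. OTOAP1 was at 1.06, 1.13 and 0.86 in the control and 0.17, 0.49 and 0.30 in the knockdown. The table held another row of the name OTOAP1 with another identifier, at 0.29, 0.35 and 0.40 in the control and 0, 0.14 and 0.12 in the knockdown.

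The members just inside and just outside the thresholds differed little. With the highest knockdown value at 0.49, FUT3, SCG5 and OTOAP1 were inside, and with 0.50 to 0.52 SERPINF2, DPYS, ASIC4, ABCC2 and SCN3B were outside. DPYS, a pyrimidine-degrading enzyme, was outside at 4.64, 3.10 and 4.48 in the control and 0.10, 0.51 and 0.30 in the knockdown. With control means of 1.01 to 1.02, GCM1, TCP11, PLEKHS1, OTOAP1 and UPK2 were inside, and with 0.963 to 0.983 FUT5, CECR2, AMY2A, STAG3L1 and OASL were outside. With the mirrored rule and the same name rule, 32 genes were near silent in the control and present in the knockdown.

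**Figure D2:**
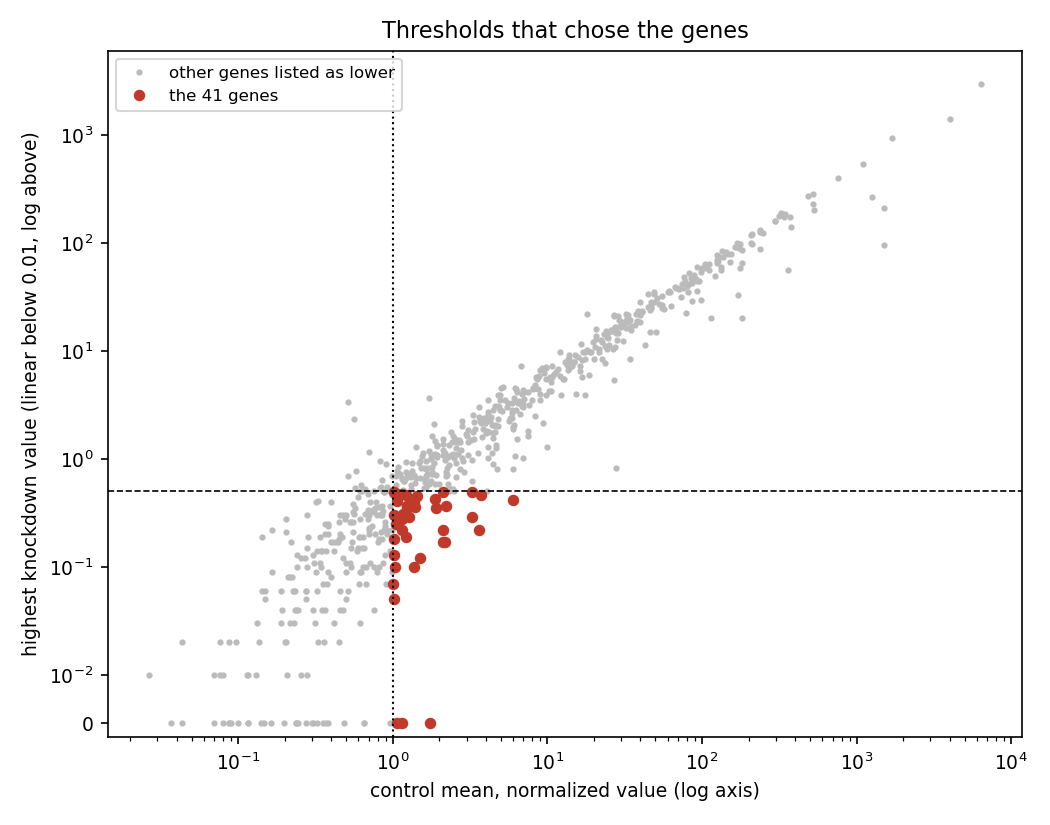
Highest knockdown value (vertical, linear below 0.01 and logarithmic above) against control mean (horizontal, logarithmic) for genes listed as lower that met the name rule; red points are the 41 genes and the dashed and dotted lines the thresholds of 0.5 and 1. The 41 genes fill the corner below 0.5 and right of 1 without a gap to the grey points around them.

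The control libraries did not contribute evenly. Control library 3 had the lowest control value in 23 of the 41 genes (56.1%), and control library 1 the highest in 23 (56.1%). The other 674 lower genes that met the name rule shared this order, with control library 3 lowest in 61.0% and control library 1 highest in 57.6%. The highest control value was at least 2 times the next in 5 genes: MGAM, IL17RE, RPL13AP20 and PLEKHS1 in library 1, and TAC3 in library 3. Control library 3 was instead the highest in 6 genes: APOE, DUOX2, TAC3, IFITM10, C1S and TMEM59L. Without control library 1 the mean of the other controls was under 1 in 8 of the 41 genes, without library 2 in 5 and without library 3 in 4. Of the 41, 24 had at least 1 control value under 1.

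**Figure D3:**
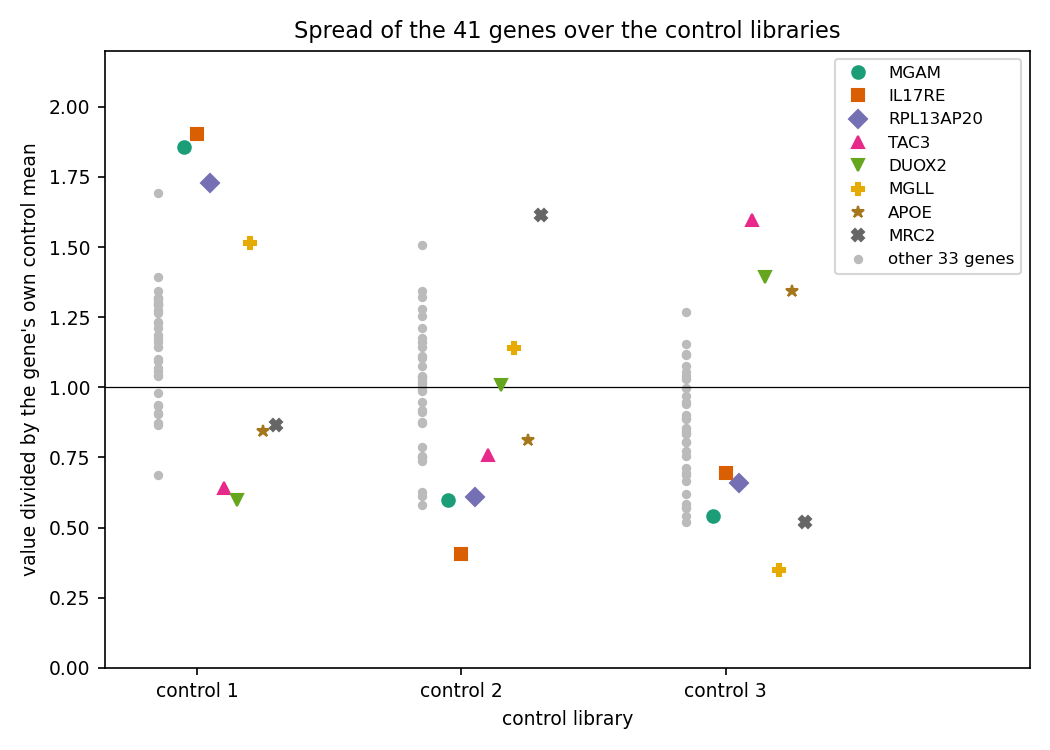
Each control value divided by the gene's own control mean (vertical) in control libraries 1, 2 and 3. The 8 coloured genes were picked for display and are not the 8 most uneven. The other 33, the uneven PLEKHS1 among them, are grey. MGAM, IL17RE and RPL13AP20 stand high in library 1, MRC2 in library 2, and TAC3, DUOX2 and APOE in library 3.

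The fold changes in the authors' deposited table ran from a log2 value of -1.60 (ABHD1 and THBS4) to -7.56 (TOX3), with a median of -3.22. At least 10-fold lower, by that table, were 19 of the 41 genes and 100 of the 674 other lower genes. The log2 ratio of the library means could be computed for 38 genes and ran from -1.49 to -5.94 with a median of -2.91. It exceeded the deposited log2 value by a median of 0.161, and was more negative than it in 10 of the 38 genes. The largest disagreements were in CORIN (-2.95 from the library means, -4.37 in the authors' deposited table) and C1S (-2.29 and -3.50 in the authors' deposited table). In the other direction IL17RE was at -3.01 from the library means and -2.17 in the authors' deposited table. In each of these 3 genes the ratio of means depended on 1 library. Without knockdown library 3 the log2 ratio was -4.39 in CORIN, without knockdown library 1 it was -3.08 in C1S, and without control library 1 it was -2.14 in IL17RE. Leaving out 1 library moved the ratio of means by over 1.5 times in 12 of the 38 genes, and TMEM59L had no ratio without knockdown library 3, where its other knockdown values were 0.

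**Figure D4:**
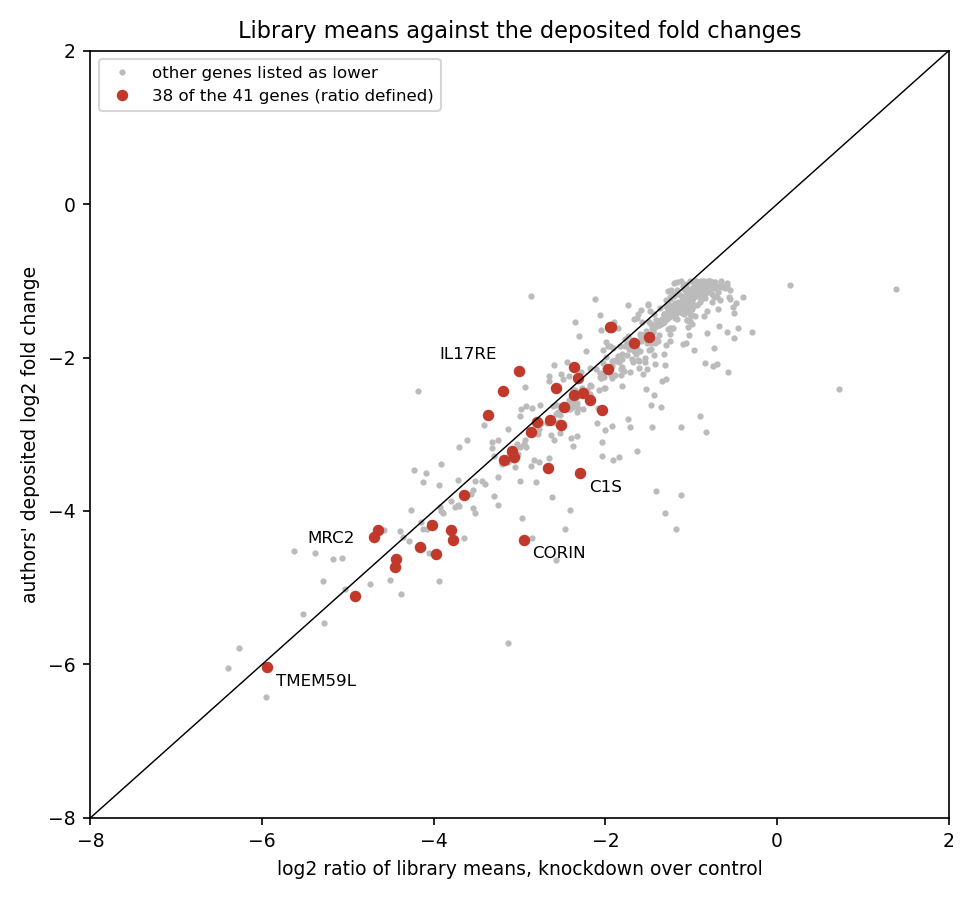
The authors' deposited log2 fold change (vertical) against the log2 ratio of library means (horizontal) for genes listed as lower, with the line of equality; red points are 38 of the 41 genes and grey points the other lower genes. CORIN and C1S lie more than 1 below the line and IL17RE lies above it.

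In limma, fitted across the 1290 listed genes that reached 1 in no fewer than 3 libraries, 17 of the 41 genes could be entered and all 17 were called lower, where 42.0% of the genes tested were called lower and 97.7% were called in either direction (adjusted p under 0.05). A member could enter only if all 3 control values reached 1, and it then had to differ, so nothing is read from this count. The log2 differences on the log2(value + 1) scale ran from -0.73 (THBS4) to -2.43 (APOE), with a median of -1.26 beside 0.73 over all genes tested. The other 24 genes were too low to enter. Without the filter all 41 were tested and called lower, where 47.0% of the 1877 genes were called lower and 95.2% in either direction. The median log2 difference over all genes tested was then -0.0972, so the 0.73 depends on the filter.

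By name and annotation, 38 of the 41 genes were protein-coding and 3 were pseudogenes, a makeup that the name rule partly sets. They lay on 17 chromosomes, with 5 each on 12 and 19. Exonic lengths had a median of 4536 bases, against 4568 in the other lower genes. In GENCODE release 29, 28 of the 41 overlapped another annotated gene, 23 of them a gene on the opposite strand. These overlaps are of whole gene spans, whether or not exons are shared, and were not counted for other genes. Whether the counting used strand was not stated, so reads from any shared exons of opposite-strand pairs may not be separable. For pairs on the same strand, strand could not separate such reads at all. IFITM10 overlaps, on the same strand, a protein-coding gene without a name that was also listed as lower. That gene was at 12.6, 14.4 and 8.52 in the control and 5.38, 3.82 and 4.48 in the knockdown, above IFITM10 in every library. Whether its reads add to those of IFITM10 was not tested.

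Some members lay beside other genes of the table that were lower as well. Within 100 kb, 10 of the 41 genes (24.4%) had another gene listed as lower, against 19.7% of the 666 other lower genes with an annotated position. A gene listed as higher lay within that distance of 7 (17.1%, against 10.1%). FUT5, a fucosyltransferase and close relative of FUT3 beside it, was at 1.41, 1.33 and 0.21 in the control and 0.07, 0.22 and 0.15 in the knockdown. Its control library 3 lay within the knockdown values, unlike that of FUT3. Reads of FUT3 and FUT5 can be shared, because their coding sequences are similar.

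MGAM2, the neighbour and relative of MGAM, was at 0.72, 0.65 and 0.64 in the control and 0.02, 0.07 and 0.07 in the knockdown. The excess of control library 1 in MGAM was thus not seen in MGAM2. LINC00628, a non-coding RNA that overlaps PLEKHA6 on the same strand, was at 0.45, 0.37 and 0.50 in the control and 0.06, 0 and 0 in the knockdown. DUOXA1, a maturation factor of the dual oxidases beside DUOX2, was at 2.27, 2.45 and 3.55 in the control and 0.52, 0.56 and 1.21 in the knockdown. DUOX2 and DUOXA1 were both highest in control library 3 and lowest in control library 1.

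GPRC5A, an orphan receptor near RPL13AP20, was at 0.81, 0.47 and 0.56 in the control and 0, 0.03 and 0.01 in the knockdown. GPRC5D, a related receptor of plasma cells within the same 100 kb, was at 2.24, 1.59 and 0.73 in the control and 4.96, 5.21 and 4.80 in the knockdown. These related receptors near RPL13AP20 were thus listed in opposite directions. C1S likewise lay among genes listed as higher, among them LPCAT3 (6.89, 8.13 and 8.14 in the control, 14.9, 19.3 and 16.7 in the knockdown), which overlaps it on the opposite strand. KBTBD11-OT1, which overlaps ARHGEF10 on the same strand, was at 0.35, 0.41 and 0.16 in the control and 0, 0.11 and 0.12 in the knockdown.

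**Figure D5:**
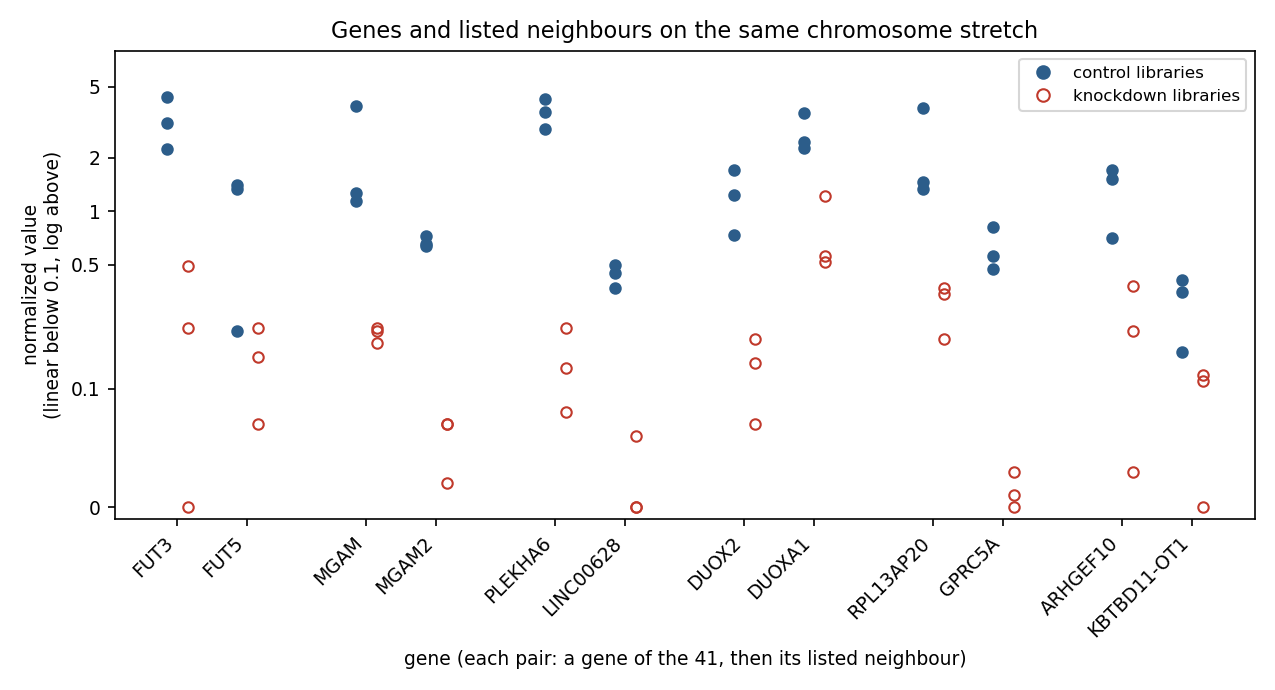
Normalized values (vertical, linear below 0.1 and logarithmic above) of 6 genes of the set, each followed by a listed neighbour; filled blue points are the 3 control libraries and open red points the 3 knockdown libraries. The groups are apart in each gene shown except FUT5, where 1 control library (0.21) falls among the knockdown values.

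Markers of other cell types were looked up beside these genes, since several of the 41 are known from tissues outside the B lineage. Of 16 fibroblast markers 2 were in the table and both were listed as lower. SPARC was at 24.3, 23.7 and 7.70 in the control and 0.20, 0.24 and 0 in the knockdown. COL1A1 was at 0.59, 0.47 and 0.72 in the control, against 0.14, 0.44 and 0.07 in the knockdown. Their sum, most of it SPARC in the control, was 8.42 to 24.9 in the control libraries and 0.07 to 0.68 in the knockdown libraries. The defining fibroblast markers COL1A2, COL3A1 and DCN were not among the listed genes and have no values here. The part of such cells in the results was not tested. Of 16 epithelial and packaging cell markers 1 was listed, as lower, with 1.85 to 3.17 in the control and 1.29 to 1.48 in the knockdown. None of 20 T and NK cell markers and none of 20 myeloid markers was listed, which leaves their levels unknown. The 2 endothelial markers in the table (of 15) and the 1 erythroid marker (of 17) were listed as higher. SPARC met both thresholds and is outside the 41 because its name was left out.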

How the data were processed

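RNA-seq of 6 LP-1 libraries (3 per group) was read from 1 deposited table, which holds the 1877 genes with the authors' fold changes of at least 2-fold. Its per-library values are a normalized signal of unstated scale, deposited by the authors with 2 decimals. The smallest value above 0 is 0.01, the rounding step, so whole reads could not be recovered and, with depth unknown, counting intervals are left out. The authors also deposited a fold ratio (knockdown over control), its log2 value and p-values, raw and adjusted, from a test not named in the sources used here. Bowtie 0.12.2 and build hg19 are named, without a role, per the submitters' processing notes.

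The members and lists were chosen with earlier results of these data known. The 41 genes were taken by thresholds on the values and a name rule; all of them are named, those nearest the thresholds with 5 genes on each outer side, and neighbours and relatives were named after values were seen. limma 3.58.1 (R 4.3.3) was fitted on log2(value + 1) with a mean-variance trend, group alone, Benjamini-Hochberg adjustment over all genes tested, and was tested on simulated data. Gene classes, exonic lengths and neighbours came from GENCODE release 29 (all 41 identifiers matched) and promoters from RefSeq by symbol (23 matched). In 20 of these 23 the last 25 bases of the window were found in a GENCODE transcript of the gene. RefSeq and GENCODE are on GRCh38, so no coordinates are given for the deposited values. Alternatives changed the thresholds, pseudocount, filter, trend, scaling, replicate block, libraries and windows.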

Additional observations from a re-analysis of the deposited data

How the results depend on the processing

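The number of genes chosen depended on the thresholds. It was 16 with a knockdown ceiling of 0.25 and 114 with a ceiling of 1, 122 with a control floor of 0.5 and 10 with a floor of 2, and 17 where every control value had to reach 1, in place of 41. Leaving out 1 library gave 39 to 53 genes, of which 33 to 41 were in the set of 41. All of the 41 genes that limma could test were called lower in each alternative run; without a filter on low values all 41 could be tested and were called, where 95.2% of the 1877 genes tested were called and 47.0% were called lower, so nothing is read from it. Their median log2 difference of -1.26 was -2.77 with a pseudocount of 0.1, -1.76 with 0.5, -0.95 without the filter and -1.45 for genes with a mean of at least 1. It ran from -1.45 to -1.17 when 1 library was left out (genes kept as chosen with all 6). A pseudocount shrinks differences between values this low, so the larger sizes with a smaller pseudocount follow from the arithmetic. Listed genes called changed numbered 1260, and 1272 with a replicate block; the 17 called members stayed 17 and their median -1.26 with the block. Whether the replicate numbers pair the samples was checked on deviations from the group means. Same-numbered deviations correlated at -0.165, -0.071 and -0.082, and no library correlated best with its own number. Deviations from means of only 3 libraries cannot exclude a shared culture or batch. For single genes, 41 of 328 limma values moved beyond the residual SD, all with a pseudocount of 0.1, and 0 reversed. Windows of 50 kb and 200 kb, chosen after seeing the data, gave 9 and 15 genes with a lower neighbour in place of 10. The shares were 22.0% and 36.6%, against 14.7% and 28.2% of the other lower genes. With either promoter window 3 promoters held CACGTG. With the 50 bases after the start included, CACGTG was in 7.43% of all promoters and 9.50% of the other lower genes. The ratios of means without each library were also added after seeing the data. The unknown depth and the rounding to 0.01 limit every knockdown value here.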
